A study of Mus musculus with 15 samples.

Results

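The protein components of the mouse cytosolic ribosome are described here through 84 genes of the 14801 in the table. They were taken by symbol: every row named Rpl or Rps followed by a number, with an a, l, x, al or l1 ending allowed, and the rows Rpsa, Rplp0, Rplp1 and Rplp2. The rule used names only and no measured value. It gave 30 genes of the small subunit, 43 of the large subunit, the 3 genes of the stalk and 8 paralog genes, and all 84 passed the filter on low values. GENCODE M21 annotates 81 of them as protein coding and 3 (Rpl6l, Rpl32l and Rps4l) as pseudogenes.

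The libraries come from 5 cell populations, sorted by flow cytometry out of fresh marrow from healthy mice, with 3 libraries for each. Their labels are CMP, the usual abbreviation of common myeloid progenitor, CD115plusGMP, a granulocyte-monocyte progenitor sorted as positive for CD115, PreNeut_Neutrophil and ProNeut_Neutrophil (PreNeut and ProNeut for short) and Neutrophil. Strain, age, sex, genotype and treatment are not labelled. Nor is it labelled whether 3 libraries mean 3 animals, so a p-value here reflects the spread of the libraries alone, and that spread may be technical.

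A ribosome joins a small subunit, which reads the mRNA, to a large subunit, which forms the peptide bond, and each subunit is built of ribosomal RNA and of proteins made in near-equal numbers. The mRNAs of these proteins start with a C followed by a run of pyrimidines, the terminal oligopyrimidine (TOP) tract, through which mTOR and Larp1 set their translation. Blood formation is sensitive to the supply. Loss of one copy of Rps19, Rpl5 or other members causes Diamond-Blackfan anaemia, and loss of one copy of RPS14 contributes to the anaemia of the 5q- syndrome. Proliferating progenitors need many ribosomes, whereas mature neutrophils no longer divide and hold few.

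RefSeq promoter windows (GRCm38.p6, 250 bases before to 50 after an annotated start) were at hand for 62 of the 84 genes. Apart from Rps19, the windows below are shown because their genes lead the levels or move against the other members in later results. Rps19 is a gene named above for Diamond-Blackfan anaemia. Each holds 30 bases before and 20 bases from the annotated start, on the strand of the gene, and capitals mark the longest run of C followed by at least 4 pyrimidines that begins within 20 bases of the start. Rpl4 lies at chr9:64173357-64173406, Rps3 at chr7:99483690-99483739 on the minus strand, Rplp0 at chr5:115559437-115559486 and Rps19 at chr7:24884562-24884611. Rps9 lies at chr7:3704011-3704060, Rpl31 at chr1:39367821-39367870, Rps25 at chr9:44407684-44407733 and Rpl5 at chr5:107900498-107900547, all on the plus strand.
Rpl4: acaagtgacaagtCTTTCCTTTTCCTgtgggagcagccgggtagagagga
Rps3: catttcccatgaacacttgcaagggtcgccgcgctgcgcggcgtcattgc
Rplp0: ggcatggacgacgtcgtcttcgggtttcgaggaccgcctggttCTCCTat
Rps19: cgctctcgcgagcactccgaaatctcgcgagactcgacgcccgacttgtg
Rps9: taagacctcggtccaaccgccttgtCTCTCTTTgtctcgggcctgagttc
Rpl31: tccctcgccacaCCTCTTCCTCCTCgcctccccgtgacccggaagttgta
Rps25: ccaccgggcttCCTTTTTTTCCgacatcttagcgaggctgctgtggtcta
Rpl5: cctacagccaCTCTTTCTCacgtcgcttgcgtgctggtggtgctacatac

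A pyrimidine run of this kind was present in 6 of these 8 windows, and the Rps3 and Rps19 windows had none. Over the 62 genes, 49 (79.0%) held one within 20 bases of the annotated start, against 50.7% of all 27025 genes with a window. At the annotated first base itself, 14 members (22.6%) had one, against 3.01% of all genes. The 62 genes had 74 windows, and a gene counted, here and for the motifs below, if any of its windows matched. Rps19 counts among the 49 through another window than the one shown. The windows were also searched on both strands for 6 motifs. The ETS-type motif CCGGAAG was in 38.7% of members with a window, against 9.93% of all genes with a window and 19.3% of those in the table. The CGCG element bound by BANP, a palindrome that lies in the Rps19 window shown, was in 9.68% against 0.525% of all and 1.08% of table genes, and the YY1 motif in 4.84% against 0.995% and 2.27%. The GC box GGGCGG was in 61.3%, the E-box CACGTG in 9.68% and TATAAA in 12.9%, against 64.8%, 11.3% and 9.11% of table genes. Overlapping matches of different motifs were each counted.

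By depth the groups form 2 sets, and tests and fold differences were made only inside a set. Where values of both sets stand side by side below, their depth and share of unnamed rows differ and no comparison is made. The first set (CMP, CD115plusGMP and Neutrophil) held 810794 to 1444403 reads per library over the genes of the table, and the second (PreNeut and ProNeut) 7493694 to 68171606, PreNeut replicate 3 being the deepest library. Rows without a symbol took 55.6% to 69.5% of first-set reads and 0.102% to 0.146% of second-set reads. A gene with 0 reads is listed at -1.31 to 0.63 log2 CPM (log2 of reads scaled to the deposited library size) in the first set and at -8.14 to -4.90 in the second. The labelled types were checked against marker genes. The summed level of 10 neutrophil genes was 9962 to 35320 CPM in Neutrophil, 73410 to 115300 in PreNeut and ProNeut and 38.1 to 41.8 in CMP, where Elane and Ly6g had no read. These 10 did not move together. Elane and Mpo had means of 5.56 and 8.33 log2 CPM in CD115plusGMP and 0.84 and 1.24 in Neutrophil. The other 8 were higher in Neutrophil. From PreNeut to ProNeut, Elane went from 8.4 to 3.4 and Mpo from 8.72 to 4.26. The other 8 were higher in ProNeut, Mmp8 at 9.64 against 2.44. The 8 erythroid markers in the table, of 10 listed, summed to 407 to 532 CPM in CMP. They reached at most 9.61 CPM in CD115plusGMP and Neutrophil, with 6 and 7 of the 8 at 0 reads there (Hba-a1, Hbb-bs and Gata1 among them in both). The 4 B lymphoid markers in the table, of 7 listed, summed to 43.3 to 88.8 CPM in Neutrophil, with Vpreb1 at 0 reads, and to at most 6.44 in the other groups. The 6 monocyte markers summed to 5.68 to 18.5 CPM in CMP, 213 to 389 in CD115plusGMP and 36.8 to 181 in Neutrophil. The 3 T and NK markers in the table, of 4 listed, were at 0 reads in CMP, and summed to 6.19 to 17.6 CPM in Neutrophil with Nkg7 at 0 reads. These sums move with the groups compared below, and their part in the results was not tested.

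Within the first set the summed level of the members was highest in CMP. It was 3144, 3841 and 3570 CPM in the 3 CMP libraries, 2753, 1767 and 1943 in CD115plusGMP, and 888, 1584 and 1425 in Neutrophil. No library of one group overlapped those of another. In the second set the sum was 2251, 1887 and 2273 CPM in PreNeut and 1285, 1413 and 1509 in ProNeut, again without overlap. The means were 3518 ± 351 (SD, n = 3) in CMP, 2154 ± 526 in CD115plusGMP and 1299 ± 365 in Neutrophil, and 2137 ± 217 in PreNeut and 1402 ± 112 in ProNeut. CMP was thus 1.63-fold above CD115plusGMP and 2.71-fold above Neutrophil, CD115plusGMP 1.66-fold above Neutrophil and PreNeut 1.52-fold above ProNeut. These folds, and the read ratios and bounds below, rest on the deposited library size. That size was 0.86 to 0.91 of the reads over the genes of the table in CMP and 0.57 to 0.65 in CD115plusGMP. In Neutrophil it was 0.25 to 0.45 and in the second set 1.93 to 2.24. In sorted bulk samples, fewer cells of a type that carries these mRNAs and less of the mRNA per cell cannot be told apart.

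As a share of reads on genes with a symbol, the members took 0.705% ± 0.068 (SD, n = 3) in CMP, 0.334% ± 0.076 in CD115plusGMP, 0.136% ± 0.037 in Neutrophil, 0.455% ± 0.027 in PreNeut and 0.282% ± 0.022 in ProNeut. The median member stood at the 75.4th percentile of the genes in a CMP library, the 65.3rd in CD115plusGMP and the 52.8th in Neutrophil, and at the 55.4th in PreNeut and the 50.4th in ProNeut. Between 5 and 16 of the 84 had 0 reads in a CMP library, 14 to 24 in CD115plusGMP and 48 to 62 in Neutrophil, against at most 1 in the second set. Over its 3 libraries Neutrophil had 1694 member reads in all, against 11215 in CMP. PreNeut had 429978 and ProNeut 87847.

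**Figure D1:**
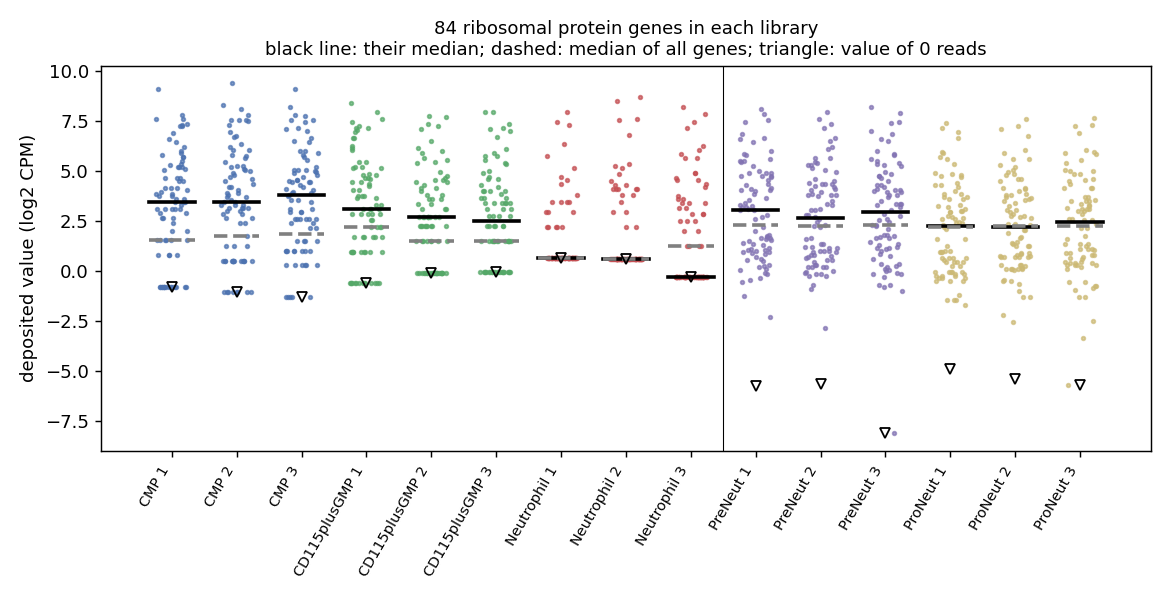
Deposited log2 CPM of the 84 genes in each of the 15 libraries, 1 point per gene, with the median of the members (black line), the median of all genes (dashed) and the value that stands for 0 reads (triangle). The member median lay between 3.44 and 3.77 in CMP and sat on the 0-read value in all 3 Neutrophil libraries, where 48 to 62 members had no read.

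Per kilobase of transcript, a scale on which genes can be set against each other, Rps9 (log2 CPM per kb of 7.74 in PreNeut and 7.63 in ProNeut), Rpl8 (7.69 and 7.01), Rpl4 (7.48 and 6.92) and Rps15 (7.46 and 6.81) led the second set. Rps9 encodes a small subunit protein near the mRNA path, and Rpl4 lines the tunnel through which the new peptide leaves. At the other end were the paralog Rpl3l (-4.89 and -3.27), Rpl21 (-0.80 and -2.19), Rpl12 (-0.71 and -1.38), Rpl11 (0.08 and -0.90) and Rpl17 (-0.21 and -0.36). In the first set Rps25, Rps14, Rpl4, Rps9 and Rps26 led over the 3 groups together. With Rpl3l left aside, values in PreNeut ran from -0.80 (Rpl21) to 7.74 (Rps9) log2 CPM per kb.

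Members that share more of their sequence with other genes were listed lower. Ribosomal protein genes have left many processed pseudogene copies in the genome, and how the authors counted a read that matches several genes is not given in the sources used here. At least 1 stretch of 50 bases was shared with another annotated gene in 82 of the 84 transcripts, and the median member shared 51.1% of its stretches. In PreNeut the 14 members that shared under 25% had a median of 4.75 log2 CPM and the 21 that shared over 75% a median of 0.86. In CMP the medians were 5.15 and 1.05. The rank correlation of level with shared share was -0.48 in CMP, -0.41 in CD115plusGMP, -0.44 in Neutrophil, -0.52 in PreNeut and -0.52 in ProNeut (Spearman, n = 84 genes, from 40 such correlations computed). Per kb it was -0.39, -0.31, -0.26, -0.42 and -0.45. These points share libraries and gene lengths, and genes are not replicates. Levels of single members are uncertain where copies exist. Rpl10 shared 92.1% of its stretches and Rps12 90.1%, Rpl4 16.5% and Rps3 2.96%.

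**Figure D2:**
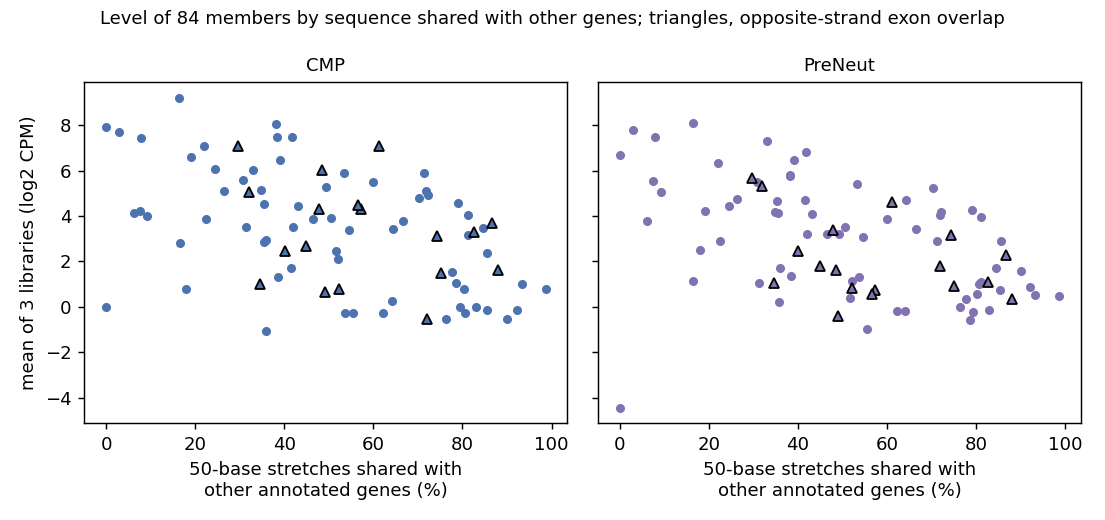
Mean log2 CPM of 3 libraries for each of the 84 genes (vertical) against the percentage of its 50-base stretches found in other annotated genes (horizontal), with triangles for genes whose exons overlap an exon on the other strand. Members above 75% shared have a median of 0.86 in PreNeut, against 4.75 for those under 25%.

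CMP and CD115plusGMP are both progenitors, and the comparison asks how the members differ between the earlier one and the one already bearing CD115. Against CMP, 6 of the 84 fell in CD115plusGMP (4.56% of all 14161 tested genes fell) and 2 rose (8.08% of all rose), 8 together where 12.6% of all genes were called. A gene counted as risen or fallen when limma gave a Benjamini-Hochberg adjusted p under 0.05 and a difference of at least 1 log2 unit. For 29 members every CD115plusGMP library lay below every CMP library (13.2% of all genes). The median member differed by -0.65 log2 units and the median gene by 0.26, and 63 of 84 members lay below 0 against 42.1% of all genes.

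Rpl4 was at 9.08, 9.39 and 9.13 log2 CPM in CMP and at 8.42, 7.75 and 7.93 in CD115plusGMP. All 3 CD115plusGMP libraries were below CMP, and the difference was -1.17 ± 0.25 (SE, n = 3; limma adjusted p = 0.0051). Rpl6 of the large subunit had 5 reads against 34. Rps10, which sits at the mRNA entry and is marked on stalled ribosomes, had 2 reads against 19, a 5.48-fold lower scaled count (95% counting interval 1.32 to 48.5). Rpl39, a small protein of the exit tunnel, had 2 against 21, 6.06-fold lower (1.48 to 53.3). Counting intervals cover counting error only.

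Rpl5 rose. This protein forms, with Rpl11 and the 5S ribosomal RNA, a particle that can bind Mdm2 and so stabilise p53. It was at 5.72, 5.82 and 6.51 log2 CPM in CMP and at 7.62, 7.70 and 7.95 in CD115plusGMP, a difference of 1.74 ± 0.44 (SE, n = 3; limma adjusted p = 0.015). Its partner in the particle, Rpl11, had 2 reads in CMP and 1 in CD115plusGMP. Rps12 also rose, on 4 reads against 1, with a ratio of 6.93 and a counting interval of 0.686 to 342 that includes no difference. Exons of Rpl5 overlap those of Fam69a on the other strand. Of the 8 genes called only Rpl4 kept its call when each library was left out in turn, and with median centring Rpl4 was at -0.82, under the minimum difference. Rpl5 lost it without CMP replicate 1, CMP replicate 2 or CD115plusGMP replicate 3 (limma adjusted p = 0.052 to 0.060). The number called was 4, 2 and 5 without CMP replicate 1, 2 and 3, and 14 without CD115plusGMP replicate 1.

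Neutrophil against CMP gave the widest difference inside a set. Of the 84 members 48 fell (17.1% of all tested genes fell) and 3 rose (26.8% of all rose), 51 together where 43.9% of all genes were called. All 3 Neutrophil libraries lay below all 3 CMP libraries for 48 (20.3% of all). The median member differed by -2.40 log2 units and the median gene by 0.60. The 41 members without a read in any Neutrophil library hold the listed 0-read value, which is higher in Neutrophil than in CMP, so fitted differences of such genes are no fold changes. Over the 71 members with enough reads for a ratio or bound, the median log2 ratio of scaled reads was -2.01.

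Among small subunit genes 17 of 30 fell and 1 rose (17.1% and 26.8% of all tested genes). Rps3, which lines the mRNA entry channel, was at 2.21, 5.26 and 5.83 log2 CPM in Neutrophil against 7.58, 7.78 and 7.75 in CMP, a difference of -3.27 ± 0.60 (SE, n = 3; limma adjusted p = 0.00031). Neutrophil replicate 1 was the lowest library, and without it the difference was -2.16. Rps14, the gene of the 5q- syndrome, was at 5.76, 5.37 and 6.05 against 7.62, 8.32 and 8.20, lower by 4.96-fold in scaled reads. Rps6, whose phosphorylation by S6 kinase marks growth signals, had 0 reads against 35, at least 4.70-fold lower, taking 3 reads over the group as the floor. Rps19 had 1 against 69, 27.8-fold lower (4.82 to 1113). Rps24 and Rps26 fell by 3.26 ± 0.53 and 3.45 ± 0.34 log2 units.

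Among large subunit genes 24 of 43 fell and 1 rose (17.1% and 26.8% of all tested genes). Rpl4 was at 4.54, 4.86 and 5.66 log2 CPM in Neutrophil, each library below all of CMP, and its difference was -4.18 ± 0.25 (SE, n = 3; limma adjusted p = 2.2e-09). Rpl32 was at 2.21, 0.62 and 3.14 against 6.89, 7.28 and 7.12, a difference of -5.11 ± 0.49. Rpl14 had 1 read against 119, 47.9-fold lower (8.44 to 1908), and Rpl7 3 against 189, 25.4-fold lower (8.55 to 124). Rpl22, an RNA-binding protein also needed in T cell development, was at 0.63, 4.52 and -0.32 against 5.90, 6.34 and 6.02. Its 7 Neutrophil reads all came from replicate 2. Rpl30, with 0 reads against 64, was at least 8.59-fold lower, and Rpl36, with 0 against 53, at least 7.11-fold.

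All 3 stalk genes fell (17.1% of all tested genes fell). Rplp0 anchors the dimers of Rplp1 and Rplp2 on the large subunit, where they recruit elongation factors. Rplp0 was at 0.63, 4.32 and 5.66 log2 CPM in Neutrophil against 7.27, 7.55 and 7.57 in CMP, a difference of -3.93 ± 0.80 (SE, n = 3; limma adjusted p = 0.00075). No Neutrophil library reached CMP. Replicate 1 had 0 reads of it, and without that library the difference was -2.48. Rplp2 had 5 reads against 151, a difference of -3.55 ± 0.50, and Rplp1 9 against 145, at -2.98 ± 0.69.

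**Figure D3:**
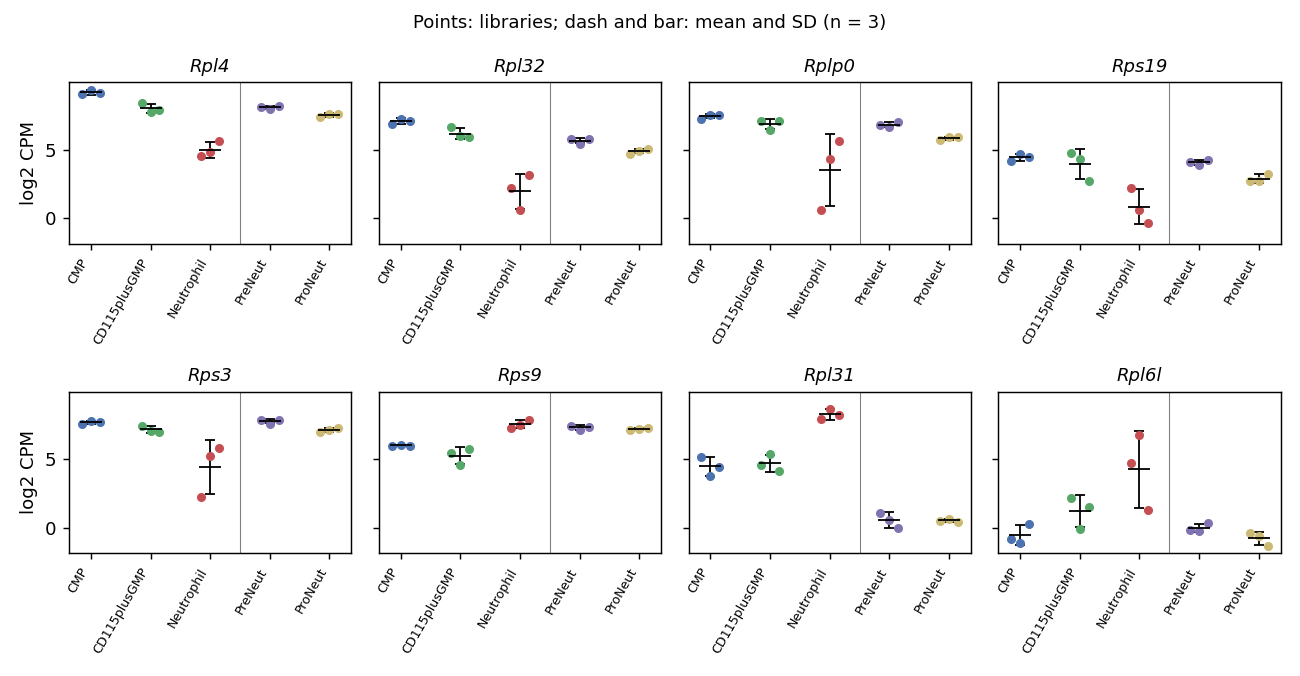
Log2 CPM of Rpl4, Rpl32, Rplp0, Rps19, Rps3, Rps9, Rpl31 and Rpl6l in each library (points) with the mean and SD of 3 libraries per group, the grey line separating the 2 sets. Rpl4, Rpl32, Rplp0, Rps19 and Rps3 have their lowest mean in Neutrophil within the first set, whereas Rps9, Rpl31 and Rpl6l have their highest mean there.

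The 3 that rose in Neutrophil were Rpl31, Rps9 and the pseudogene row Rpl6l. Rpl31, a large subunit protein at the tunnel exit, was at 7.94, 8.70 and 8.21 log2 CPM against 5.19, 3.78 and 4.47 in CMP. The groups did not overlap, and the difference was 3.80 ± 0.49 (SE, n = 3; limma adjusted p = 9.0e-06). In the second set the same gene was at 1.11, 0.56 and -0.03 in PreNeut and 0.52, 0.68 and 0.42 in ProNeut. Rps9 was at 7.29, 7.53 and 7.86 against 5.98, 6.06 and 6.0, a difference of 1.55 ± 0.28 (limma adjusted p = 0.00027). Its call rested on the deposited scaling: the difference was 0.38 with quantile normalization (adjusted p = 0.208) and 0.19 with plain totals over genes with a symbol (0.695). Rpl6l had 45 reads against 1, at 4.72, 6.80 and 1.26 log2 CPM, so its Neutrophil libraries differed more among themselves than the other members that rose. As a share of the members' summed CPM in Neutrophil, Rpl31 took 24.8%, Rps25 18%, Rps9 15.1% and Rpl5 10.4%, together 68.3%. In CMP Rpl4 led with 16.8%. Rps25, of the small subunit, did not pass, at 7.45, 8.48 and 7.44 log2 CPM in Neutrophil against 7.28, 6.95 and 7.01 in CMP. Its groups did not overlap, and the difference was 0.71 ± 0.29 (SE, n = 3; limma adjusted p = 0.057).

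Exons of Rpl31, Rps25 and Rpl5 overlap exons of a gene on the other strand, as those of 18 members do by at least 50 bases. The counting's strand setting is not given in the sources used here. The partner of Rpl31, Tbc1d8, shares 420 exon bases with it and was at 9.38 log2 CPM in CMP and 5.53 in Neutrophil. Cand2, which shares 53 bases with Rpl32, was at 12.2 in CMP, and Nkiras1, which shares 105 with Rpl15, at 8.98. Fam69a, which shares 953 with Rpl5, was at 9.36 in CMP and 5.08 in Neutrophil. In PreNeut and ProNeut, Cand2 was at 0.001 and -1.16 and Nkiras1 at -0.80 and 0.24. Tbc1d8 was at 7.59 and 7.89 there, and Fam69a at 3.45 and 2.75. Reads of such partners were not separated from those of the members, nor were member reads that may be listed under a partner. First-set values are therefore values of the locus and may hold reads of the opposite strand, for members without an annotated partner too. What this contributes was not tested.

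The 18 members with a partner summed to 489 ± 17.4 CPM (SD, n = 3) in CMP, 521 ± 16.9 in CD115plusGMP and 705 ± 243 in Neutrophil, 14.0%, 25% and 54.4% of the members' total. In the second set they took 7.95% and 8.03%. The 66 members without one summed to 3029 ± 349, 1633 ± 513 and 594 ± 211 CPM in the first set, and to 1967 ± 197 in PreNeut and 1290 ± 103 in ProNeut. In Neutrophil against CMP, 40 of these 66 fell and 2 rose (Rps9 and Rpl6l), against 8 of 18 that fell and 1 that rose with a partner. Of all tested genes 17.1% fell there and 26.8% rose.

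**Figure D4:**
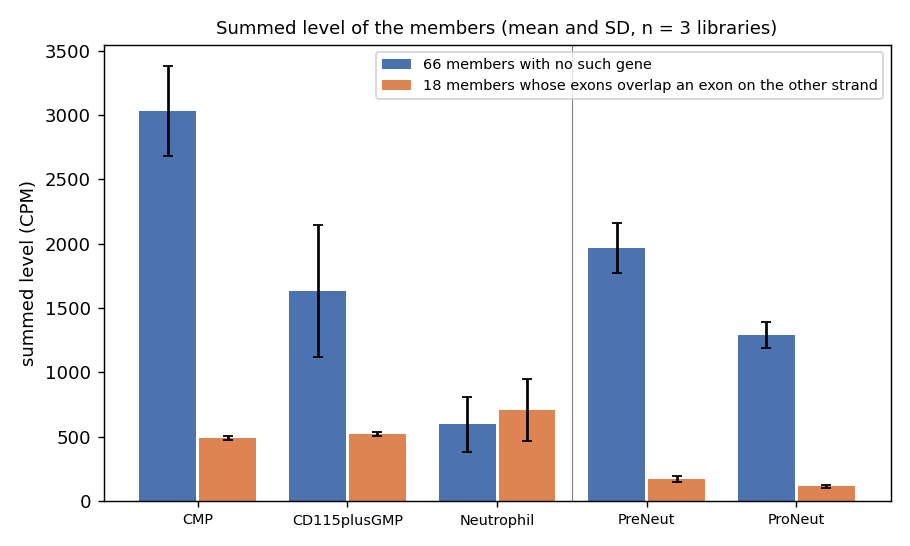
Summed CPM of the 66 members without and the 18 with an exon overlap on the other strand, as bars of the mean with SD (n = 3 libraries) in each group. The 66 decline from 3029 in CMP to 594 in Neutrophil while the 18 stand at 489 and 705.

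Between Neutrophil and CD115plusGMP, 34 of the 84 members fell (13.2% of all tested genes fell) and 3 rose (20.2% of all rose), 37 together where 33.4% of all were called, and the libraries were without overlap downward for 28 (15.1% of all). This comparison shares its libraries with the 2 above. The median member differed by -1.18 and the median gene by 0.32. By role, 12 of 30 small subunit genes, 17 of 43 large subunit genes and 2 of 3 stalk genes fell. Rpl32 was lower by 4.2 ± 0.49 log2 units (SE, n = 3) in the fit, Rpl4 at -3.02 ± 0.25 and Rps26 at -2.49 ± 0.34. Rplp0 was at -3.38 ± 0.80, and at -1.93 without Neutrophil replicate 1. Rpl31 rose by 3.56 ± 0.49 and Rps9 by 2.31 ± 0.28 (limma adjusted p = 2.9e-05 and 8.1e-06). Rps9 had been at 5.45, 4.56 and 5.76 in CD115plusGMP, below each Neutrophil library. Rpl6l rose by 3.06 ± 1.01, a call lost without any of 4 single libraries (limma adjusted p = 0.157 and a difference of 1.79 without Neutrophil replicate 2).

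ProNeut and PreNeut are 2 sorted subsets of neutrophil progenitors, and the question is how the members differ between them. No member passed in the limma fit over all 15 libraries, in which 2.26% of all genes were called (0.417% fell and 1.84% rose). Only 3 members lay lower at an unadjusted p under 0.05 (3.64% of all). That fit shares its spread with the shallow first set. In simulated data it called 0 of 100 genes changed by 1 log2 unit and 27 of 100 changed by 2. That no member passed therefore says little about differences near 1 log2 unit. By their values 79 of 84 members lay below 0 (44.6% of all genes), the median member differed by -0.67 against 0.07 for the median gene, and for 51 every ProNeut library lay below every PreNeut library (18.2% of all). Basophil and mast cell markers summed to 26.2 to 30.3 CPM in PreNeut and 1.67 to 2.05 in ProNeut, erythroid markers to 2.36 to 6.64 and 48.2 to 53, and T and NK markers to 21.6 to 29.3 and 3.21 to 5.25. The T and NK markers did not move together. Nkg7 had a mean of 4.57 log2 CPM in PreNeut and 1.24 in ProNeut. Cd3d and Cd3e went the other way, from -2.87 to 0.61 and from -4.81 to -1.85. The part of all these markers in the differences of the members was not tested.

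With limma fitted to the 6 libraries of the second set alone, 4 members fell by at least 1 log2 unit (2.74% of all genes) and none rose. They were Rps18, Rps19 and Rps20 of the small subunit and Rplp1 of the stalk. Rps19 was at 4.09, 3.86 and 4.28 log2 CPM in PreNeut and 2.72, 2.73 and 3.25 in ProNeut, without overlap, and differed by -1.18 ± 0.17 (SE, n = 3; limma adjusted p = 0.00012). Rps20 was at 5.51, 5.29 and 5.86 against 4.31, 4.61 and 4.54, at -1.07 ± 0.13. Rplp1 was at 4.04, 3.80 and 3.79 against 2.58, 2.76 and 3.07, at -1.07 ± 0.17. With no minimum difference, a setting chosen after the 15-library result was seen, 37 members lay lower at an adjusted p under 0.05 (11.1% of all genes) and none higher, and 31 did without the deep PreNeut replicate 3 (9.49%).

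The other stalk genes lay close to Rplp1. Rplp0 was at 6.83, 6.67 and 7.0 in PreNeut against 5.71, 5.91 and 5.93 in ProNeut, a difference of -0.98 ± 0.10 (limma adjusted p = 1.8e-06 in the second set alone), and Rplp2 was at 5.59, 5.40 and 5.51 against 4.41, 4.61 and 4.59. Rpl4, the member with the most reads, was at 8.11, 7.96 and 8.21 against 7.38, 7.61 and 7.65, a smaller difference of -0.55 ± 0.25 in the 15-library fit. Rps9 differed little, at 7.44, 7.15 and 7.38 against 7.13, 7.23 and 7.29, and its libraries overlapped (-0.11 ± 0.28). Of the 5 members above 0, Rpl3l, a paralog used in muscle, was highest on 16 reads against 8, with PreNeut replicate 3 and ProNeut replicate 3 at 0 reads, and Rps13, Rps27, Rpl10 and Rpl19 lay at 0.12 to 0.53. The order of the 84 genes by level was nearly the same in PreNeut and ProNeut (Spearman 0.98, n = 84 genes of libraries that share a set). It was 0.98 for all 14801 genes as well.

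**Figure D5:**
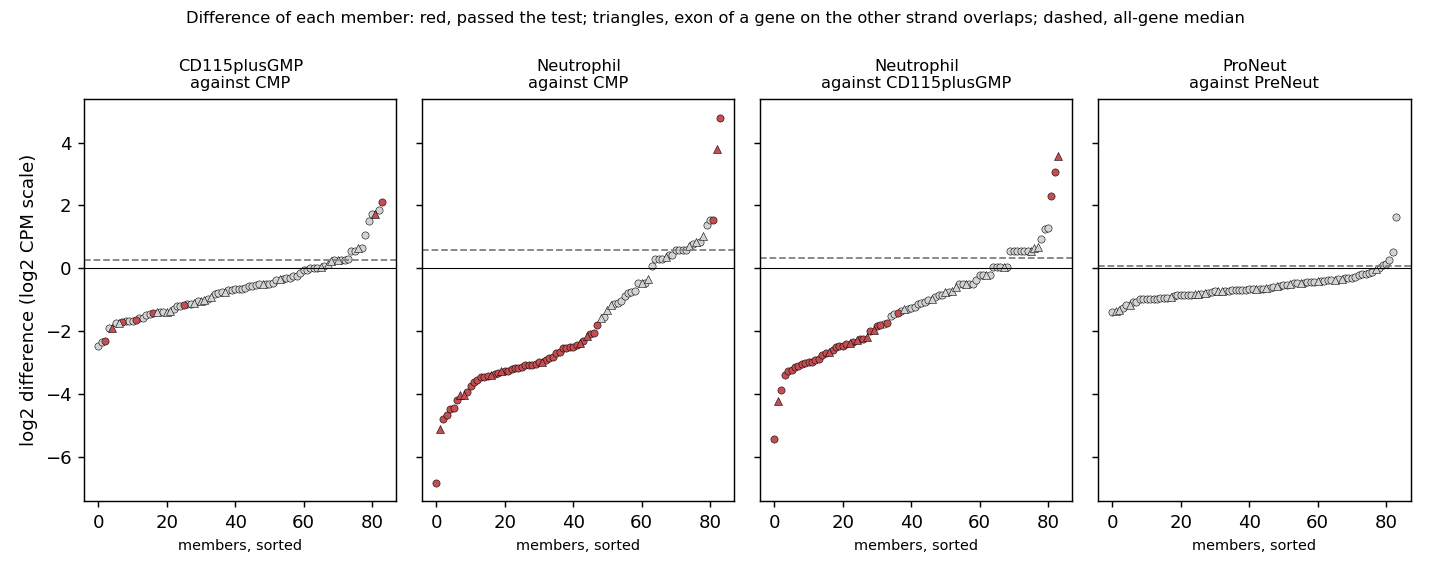
Log2 difference of each of the 84 members in the 4 comparisons, sorted within each panel, with members past the test in red, triangles for an exon overlap on the other strand and a dashed line at the median of all genes. Neutrophil against CMP reaches 4.80 (Rpl6l), while ProNeut against PreNeut stays between -1.39 and 1.63 with no member past the test.

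Paralogs were set against their parent genes as paralog minus parent in log2 CPM per kb. Rpl22l1 minus Rpl22 was -3.90 ± 0.33 (SD, n = 3) in PreNeut and -3.68 ± 0.17 in ProNeut. Rps27l, a known p53 target, lay above Rps27, by 1.90 ± 0.18 in PreNeut and 1.17 ± 0.37 in ProNeut. Rpl36al lay above Rpl36a, by 2.34 ± 0.17 in PreNeut and 2.47 ± 0.63 in ProNeut. Rpl7l1 lay below Rpl7, at -1.5 ± 0.20 in PreNeut and -1.08 ± 0.02 in ProNeut. The row Rps4l lay below Rps4x, at -1.37 ± 0.36 and -0.98 ± 0.65. Each of these 5 pairs had the same order in both groups of the second set. Of the 8 paralog genes, Rpl22l1, Rpl32l, Rpl36al and Rps27l fell in Neutrophil against CMP (17.1% of all tested genes fell) and Rpl6l rose (26.8% of all rose). Shared sequence makes the split of reads within such pairs uncertain.

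Of 22 members linked to Diamond-Blackfan anaemia or the 5q- syndrome, 11 fell and 1 (Rpl31) rose in Neutrophil against CMP (17.1% and 26.8% of all tested genes), with a median of -1.86 against -2.40 for all members. In CD115plusGMP against CMP, Rps10 fell and Rpl5 rose, and none passed between ProNeut and PreNeut. Some members are known to bind Mdm2 or to act on the mRNA of p53. Of these, Rpl23 and Rpl26 fell in Neutrophil against CMP (11 reads against 108 and 9 against 190). Rpl5 did not pass there (1.02 ± 0.44), and Mdm2 itself rose by 2.16 ± 0.37 while Trp53 had 1 read against 23.

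Genes of the translation machinery outside the rule were read from lists of their own. Of 5 further ribosome components in the table, Rack1, a scaffold on the small subunit, and Rps3a1 fell in Neutrophil against CMP, by 4.03 ± 0.69 and 3.96 ± 0.61 log2 units (SE, n = 3). Fau and Rps27rt did not pass, on 10 reads or fewer per group. Of 20 other genes with TOP mRNAs, 16 fell in that comparison (17.1% of all tested genes fell) and 1 rose (26.8% of all rose). In CD115plusGMP against CMP 4 fell and 1 rose (4.56% and 8.08% of all), and none passed in ProNeut against PreNeut (2.26% of all were called). The elongation factor genes Eef1a1 and Eef2 fell by 2.73 ± 0.31 and 2.10 ± 0.37, and Npm1, a nucleolar chaperone of ribosome assembly, had 4 reads against 561. The gene that rose was Vim (vimentin), at 8.03, 8.79 and 8.10 log2 CPM against 3.85, 3.31 and 3.33. Of 17 regulators of ribosome supply, Maf1, Max, Mxi1 and Polr1a rose in Neutrophil against CMP and Myc, Polr1b, Rps6 and Rrn3 fell, 4 of 17 each way, where 26.8% of all genes rose and 17.1% fell. Shares this near to those of all genes are no result about the regulators. Myc, which drives transcription of ribosome genes, had 0 reads against 58, at least 7.78-fold lower. Larp1, the repressor that binds TOP tracts, differed by -1.01 ± 0.42 and did not pass (limma adjusted p = 0.062).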

How the data were processed

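Values were analysed from 1 table of log2 CPM that the authors deposited for 14801 genes in 15 libraries (Universal Plus mRNA-Seq, Nugen, per the labels' protocols). The submitters' processing notes name GRCm38 (mm10), edgeR 1.30.5, featureCounts 1.22.2 and FastQC 0.11.7. Aligner and strand setting: not given in the sources used here. All values (100%, tolerance 0.001 reads) are log2 of whole reads plus 0.5, times a constant per library, so reads were recovered.

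Groups came from the labels. Genes above 0 log2 CPM in at least 3 libraries (14161) were fitted in R 4.3.3 by limma 3.58.1 (a linear model over all 15 libraries, contrasts between groups, trended empirical Bayes), with 2-sided p-values adjusted by Benjamini-Hochberg over all of them. A call needed an adjusted p under 0.05 and 1 log2 unit. The script was tested on simulated data. Over the 4 comparisons it called 0 to 5 of 100 genes changed by 1 log2 unit, and 12 to 35 of 100 changed by 2. All replicate pairs differed by more than sampling noise (chi-square per degree of freedom 2.10 to 24.4).

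Transcripts, strands and partners came from GENCODE M21 (83 members matched by Entrez identifier, 1 by symbol), using the principal, best-supported and then shortest transcript, which is still long for Rps15a and Rps20. Members and lists were chosen with earlier results of these data known. Named genes are called members, the largest and smallest differences, the highest and lowest per kb, paralogs and list genes, though a few genes the rule takes are not reported here. The transcript rule, the pyrimidine run at the first base and in capitals, the printed windows, the bins of shared sequence and the fits within a set by voom, without a minimum or without PreNeut replicate 3 were chosen after values were seen. Alternatives covered scaling, filters, added reads, libraries used, voom, a replicate block and leaving out each library. Ratios use 95% counting intervals.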

Additional observations from a re-analysis of the deposited data

How the results depend on the processing

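No count or median of the members, and none of the single members recomputed, changed direction under the alternatives run. The medians of all genes did: as deposited they were 0.26, 0.60 and 0.32 in CD115plusGMP against CMP, Neutrophil against CMP and Neutrophil against CD115plusGMP, and -0.30, -0.77 and -0.49 with plain totals over genes with a symbol. Members above 0 in CD115plusGMP against CMP numbered 21, but 31 with median centring and 8 with plain totals, so members that did not pass changed sign. The number of members called in CD115plusGMP against CMP was 8, but 13 with quantile normalization, 2 with median centring, 27 with plain totals over genes with a symbol, 16 with only the 2 groups compared, 5 with limma voom on recovered reads, 4 with voom within the set (4 with no minimum difference), 2 with only the libraries of the set (2 with no minimum difference) and 2 to 14 with 1 library left out. In Neutrophil against CD115plusGMP it was 37, and 24 with only the 2 groups compared. In ProNeut against PreNeut it was 0, but 1 with quantile normalization, 4 with only the 2 groups compared, 4 with the second set alone (37 with no minimum difference), 7 with voom, 9 with voom within the set (34 with no minimum difference), and 4 within the set without PreNeut replicate 3 (31 with no minimum difference). In Neutrophil against CMP it was 51, and 44 (stricter filter) to 63 (plain totals) over the alternatives run. The median difference of members in CD115plusGMP against CMP was -0.65, and -0.90 with a stricter filter, -0.30 with median centring, -1.21 with plain totals and -1.04 with 2 reads added. In Neutrophil against CMP it was -2.40, and -3.12 with the stricter filter, -3.37 with quantile normalization, -1.40 with median centring, -3.77 with plain totals and -4.06 with 2 reads added. In Neutrophil against CD115plusGMP it was -1.18, and -2.25, -2.03, -0.53, -1.99 and -2.74 under those settings. Member minus all-gene medians were -0.91, -3.00 and -1.50 in these 3 comparisons, which a shift of whole libraries (median centring, plain totals) leaves in place by construction. They were -0.72, -3.34 and -2.09 with quantile normalization and -0.93, -3.19 and -2.66 with 2 reads added. The cause of these differences was not tested. For the 41 members without a Neutrophil read the depth allows a bound at most. Total reads were 3573746 in Neutrophil and 3571975 in CMP, where 1 member had no read.

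Libraries were not paired by replicate number. Same-numbered libraries correlated at 0.145 or less in their deviations from the group mean, which with 3 libraries per group cannot exclude a pairing. In ProNeut against PreNeut the same-numbered pairs were at 0.083, 0.054 and 0.145, and the other pairs at -0.133 to 0.090. With a replicate block, 8 members were called in CD115plusGMP against CMP and 51 in Neutrophil against CMP. In Neutrophil against CD115plusGMP 36 were called, and 0 in ProNeut against PreNeut.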
